A study of Mus musculus with 21 samples.

Results

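The genes described here are 10 epithelial and mesenchymal adhesion genes, Cdh1, Cdh2, Epcam, Cldn6, Cldn7, Zeb1, Zeb2, Snai1, Snai2 and Vim, taken by symbol from the gene counts of mouse embryonic stem cells (mESCs). All 10 were found among the 23412 genes counted, and all 10 were among the 14963 genes with enough counts to be tested. Poly-A RNA was sequenced from v6.5 mESCs, a male line, 48 h after transfection with 50 nM of siRNA, in 7 conditions with 3 libraries each. WT mESCs, which carried no edit of either gene, received siGLO, a transfection control, or siPds5b. Pds5a-KO mESCs, edited with CRISPR in an exon of both Pds5a alleles, received siGLO, siPds5b, siStag1 or siStag2. On 1 of these alleles the deletion reaches past the exon into the next intron. Pds5b-KO mESCs, which carry a homozygous insertion in an exon of Pds5b, received siGLO. Each knockout was 1 clone, so the effects of the clone and of the gene cannot be told apart. The p-values rest on the spread between libraries, estimated over all 7 conditions together, and do not measure the spread between clones.

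PDS5A and PDS5B bind cohesin, the ring complex that forms chromatin loops, and STAG1 and STAG2 are alternative subunits of it. E-cadherin (Cdh1) joins neighbouring epithelial cells through adherens junctions, claudins (Cldn6, Cldn7) form tight junctions, and Epcam is an adhesion molecule of epithelial surfaces. N-cadherin (Cdh2) and the intermediate filament protein vimentin (Vim) mark mesenchymal and neural cells. ZEB1, ZEB2, SNAI1 and SNAI2 are transcription factors that bind E-boxes and repress Cdh1 in the epithelial-mesenchymal transition, when cells lose junctions and become motile. mESCs are an epithelial cell type that depends on E-cadherin for compact colonies, and cells of the primitive streak switch from E-cadherin to N-cadherin as they leave the epiblast.

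Total counts per library were between 17311090 and 23989198. The mRNA of Pds5b was at 2219 ± 177 normalized counts in WT siGLO (SD, n = 3) and at 275.8 ± 37.2 in Pds5b-KO siGLO, where a normalized count is a count scaled to the mean effective library size of 19816922. Pds5a mRNA, which the edits need not remove, was at 5059 normalized counts in WT siGLO and at 4271 in Pds5a-KO siGLO. The summed level of 9 embryonic stem cell markers was 7080 to 7620 CPM (counts scaled to the same total in every library) in WT siGLO, 5440 to 6220 in Pds5b-KO siGLO and 4240 to 6390 in the 4 Pds5a-KO conditions. The summed level of 8 feeder fibroblast markers was 59 to 81.8 CPM in WT siGLO and 20.9 to 82.3 CPM in Pds5a-KO siGLO, and that of 8 primitive streak and mesoderm markers was 30.1 to 83.6 CPM in WT siGLO and 16.3 to 28.3 CPM in Pds5a-KO siGLO. Libraries numbered 1 stood apart for several of the adhesion genes, with lower Cldn6 and Cldn7 in 4 knockout conditions and lower Cdh2 and Vim in WT. Results that moved without them are given beside the value or in the closing section on processing.

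In WT siGLO mESCs the 10 genes differed widely in level. Per kilobase of the longest coding transcript, Vim was at 134.1 CPM, Epcam at 103.9 and Cdh1 at 88.61. Cldn6 was at 27.08 CPM per kilobase and Cldn7 at 10.5. Cdh2 was at 3.607 CPM per kilobase and Zeb1 at 3.462. Snai1 at 1.146, Zeb2 at 0.8222 and Snai2 at 0.165 CPM per kilobase were the lowest. E-cadherin mRNA was far above N-cadherin mRNA in WT mESCs, with Vim mRNA beside it, while the Snai2 count rested on 4, 5 and 13 raw counts in the 3 libraries.

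Cdh1 is on chromosome 8 of GRCm38 (mm10) from 106603351 to 106670246. Epcam and Cldn6 are on chromosome 17, from 87635979 to 87651129 and from 23679249 to 23682446, and Cldn7 is on chromosome 11 from 69964779 to 69967885. Zeb2 (44983632 to 45117395), Snai1 (167538195 to 167542814) and Vim (13573927 to 13582826) are on chromosome 2, and Snai2 is on chromosome 16 from 14705852 to 14709385.

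SNAI and ZEB factors bind the E-box CACCTG, whose reverse complement is CAGGTG, so a search for both covers both strands. Promoter windows of 300 bases, 250 upstream of a RefSeq start and the rest downstream (GRCm38.p6), were held for 6 of the 10 genes. An E-box was in a window of 4 of the 6, Epcam, Cldn6, Cldn7 and Snai1, and in none of the windows of Zeb2 and Vim. Among all 27025 genes with a window, 22.6% held one in any of theirs. In Epcam the E-boxes begin at -187 and -19 from the start, in Cldn6 at -93 and 41, in Snai1 at -126, and in Cldn7 at -97 and -57 of the second of its 2 starts. The upstream bases of Epcam, with the motif, and of the first start of Cldn7, without it, are shown as examples of each. The window of the second Cldn7 start holds 2 E-boxes, so both genes have the motif in a window. The sequences run 5′ to 3′ on the plus strand, at chr17:87635729-87635978 and chr11:69964529-69964778, with the E-boxes in capitals.
Epcam: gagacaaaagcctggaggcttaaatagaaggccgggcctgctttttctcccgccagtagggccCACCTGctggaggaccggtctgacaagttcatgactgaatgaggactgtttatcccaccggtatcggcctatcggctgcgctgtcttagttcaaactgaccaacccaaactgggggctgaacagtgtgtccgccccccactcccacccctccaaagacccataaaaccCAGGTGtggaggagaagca
Cldn7: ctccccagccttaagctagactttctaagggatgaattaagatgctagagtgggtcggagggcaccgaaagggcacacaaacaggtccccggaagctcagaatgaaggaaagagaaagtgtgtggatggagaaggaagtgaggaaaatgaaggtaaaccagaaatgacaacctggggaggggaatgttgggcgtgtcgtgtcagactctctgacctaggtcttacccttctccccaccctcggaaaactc
A match is a description of these letters, and binding of a factor to it was not measured here.

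**Figure D1:**
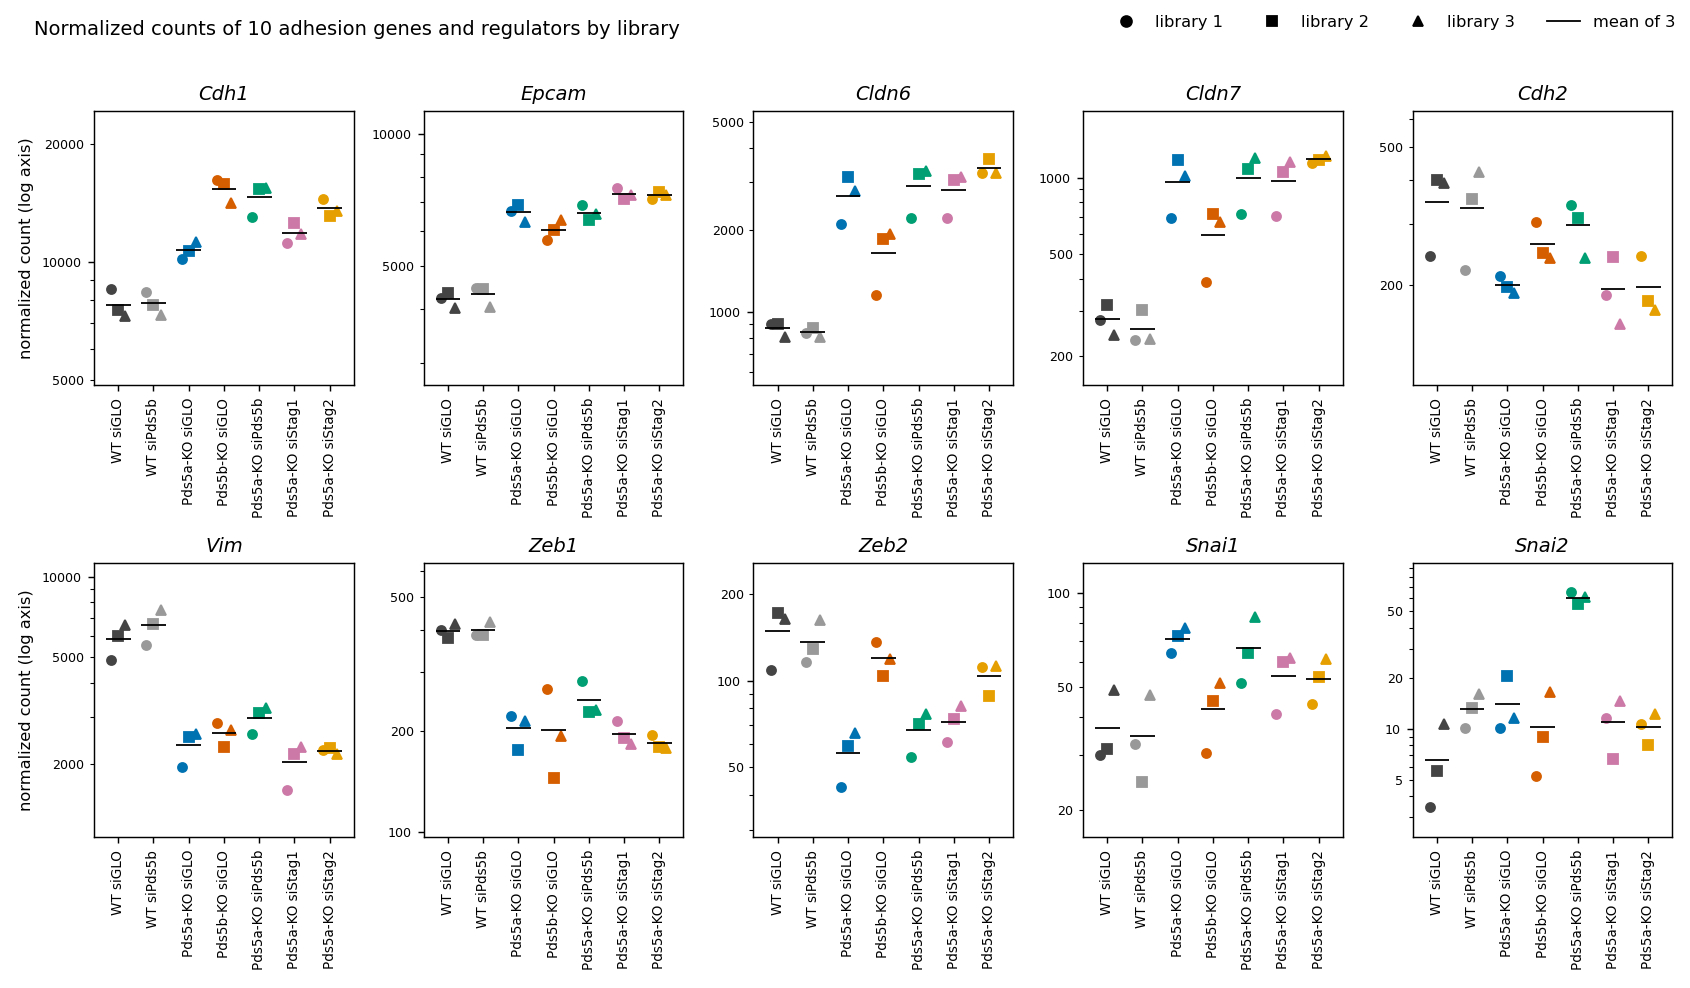
Normalized counts (log axis) of the 10 adhesion genes in each library of the 7 conditions. Points are single libraries and lines are group means, and the 3 libraries of each knockout condition sit above the WT siGLO libraries for Cdh1, Epcam, Cldn6 and Cldn7 and below them for Vim and Zeb1.

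The epithelial genes Cdh1, Epcam, Cldn6 and Cldn7 were each higher in both knockouts than in WT siGLO, and Vim and Zeb1 were lower in both. In Pds5a-KO siGLO, 8 of the 10 genes were called, 5 higher and 3 lower, where 17.8% of all tested genes were called in the same comparison. In Pds5b-KO siGLO, 6 of the 10 were called, 4 higher and 2 lower, where 18.2% of all tested genes were called. These genes, and the gene lists further on, were chosen with earlier results of these data known. How much that choice adds to their numbers called was not tested. A call needed an adjusted p under 0.01 in edgeR's quasi-likelihood test, corrected over all 14963 genes by the Benjamini-Hochberg method, and each log2 fold change is given with its standard error. The median log2 fold change over all tested genes was within 0.01 of 0 in both comparisons, which share the WT siGLO libraries. In bulk RNA, fewer cells of a type and less RNA per cell cannot be told apart.

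Cdh1 was at 8534, 7535 and 7267 normalized counts in the WT siGLO libraries, at 10150, 10690 and 11260 in Pds5a-KO siGLO, and at 16210, 15790 and 14100 in Pds5b-KO siGLO. The 3 groups did not overlap, and the Pds5b-KO libraries were the highest. The log2 fold change over WT siGLO was 0.46 ± 0.082 in Pds5a-KO (edgeR adjusted p = 0.000168) and 0.98 ± 0.082 in Pds5b-KO (edgeR adjusted p = 6.13e-09).

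The chromosome that carries Cdh1 moved with it in one knockout and against it in the other. In Pds5b-KO siGLO the 781 tested genes of chromosome 8 had a median log2 fold change of 0.295 over WT siGLO, against -0.0186 for genes elsewhere, and 36.4% of them were called higher. In Pds5a-KO siGLO their median was -0.191, against 0.0106 elsewhere, and 22.3% were called lower while 5.25% were called higher. Cdh1 thus lay above the chromosome's median in both knockouts, and the part of the chromosome's shift in the Cdh1 values was not tested.

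**Figure D2:**
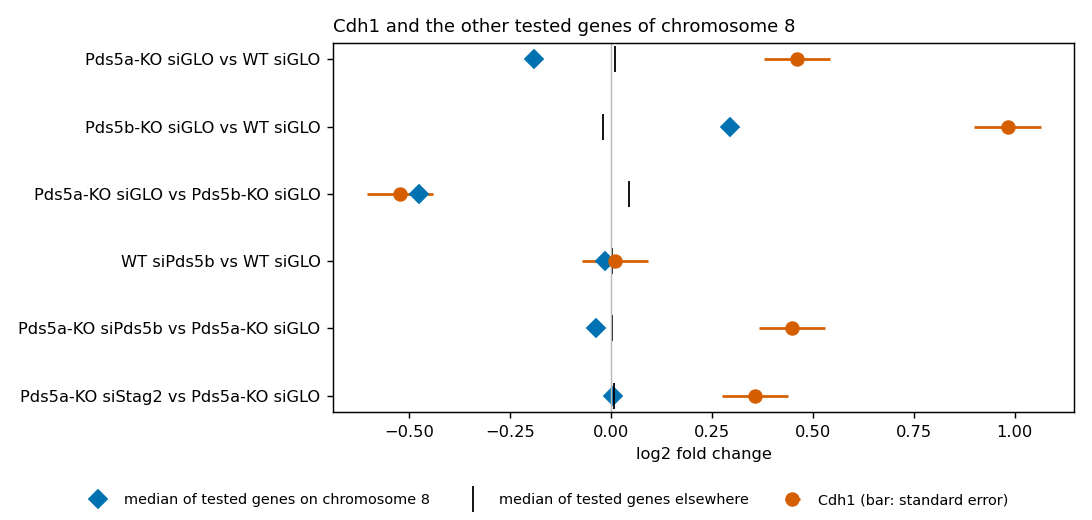
Log2 fold change of Cdh1 (circle, bar of 1 standard error) in 6 comparisons (rows), with the median of the tested genes on chromosome 8 (diamond) and elsewhere (vertical mark). In Pds5b-KO siGLO over WT siGLO the chromosome 8 median is 0.295 and Cdh1 is at 0.98, and in Pds5a-KO siGLO the median is -0.191 and Cdh1 is at 0.46.

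Epcam was at 4240, 4352 and 4015 normalized counts in WT siGLO, at 6694, 6893 and 6321 in Pds5a-KO siGLO, and at 5743, 6040 and 6368 in Pds5b-KO siGLO. Its standard error was the smallest of the 10 genes, and all knockout libraries were above all WT libraries. The log2 fold change was 0.66 ± 0.062 in Pds5a-KO (edgeR adjusted p = 3.58e-08) and 0.53 ± 0.062 in Pds5b-KO (edgeR adjusted p = 1e-06).

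The claudins rose most among the epithelial genes in Pds5a-KO mESCs. Cldn6, a claudin of early embryonic epithelia, was at 901.4, 903.4 and 806.3 normalized counts in WT siGLO, at 2104, 3126 and 2786 in Pds5a-KO siGLO, and at 1154, 1850 and 1926 in Pds5b-KO siGLO. Its log2 fold change was 1.62 ± 0.20 in Pds5a-KO (edgeR adjusted p = 1.95e-05) and 0.92 ± 0.20 in Pds5b-KO (edgeR adjusted p = 0.00263). Cldn7, a claudin of many adult epithelia, was at 275.8, 315.4 and 242.3 normalized counts in WT siGLO, at 692.7, 1167 and 1016 in Pds5a-KO siGLO, and at 389.5, 721.8 and 670.7 in Pds5b-KO siGLO.
The Cldn7 log2 fold change was 1.79 ± 0.26 in Pds5a-KO (edgeR adjusted p = 0.000105) and 1.10 ± 0.26 in Pds5b-KO (edgeR adjusted p = 0.00526). In both knockouts the library numbered 1 was the lowest for both claudins, and all knockout libraries were above WT. The Pds5b-KO calls were lost for Cldn6 without WT siGLO library 3 or Pds5b-KO library 2 or 3, with adjusted p up to 0.014 in edgeR, and for Cldn7 without any WT siGLO library or Pds5b-KO library 2 or 3, with adjusted p up to 0.0268.

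Vim fell in both knockouts. It was at 4881, 6000 and 6603 normalized counts in WT siGLO, at 1951, 2511 and 2591 in Pds5a-KO siGLO, and at 2845, 2305 and 2678 in Pds5b-KO siGLO. The highest knockout library was far below the lowest WT library. The log2 fold change was -1.31 ± 0.15 in Pds5a-KO (edgeR adjusted p = 3.75e-06) and -1.16 ± 0.15 in Pds5b-KO (edgeR adjusted p = 1.43e-05). The sum of the primitive streak and mesoderm markers moved the same way, from a mean of 60.3 CPM in WT siGLO to 23.2 and 25.6 CPM in the knockouts, and the feeder sum had means of 67.5, 52.8 and 24.1 CPM. The sum of 7 neuroectoderm markers was 129 CPM in WT siGLO, 72.6 in Pds5a-KO siGLO and 134 in Pds5b-KO siGLO on average. It was thus lower beside Vim in one knockout and not in the other. Abundant markers weigh most in such a sum. In Pds5b-KO siGLO 2 of the 6 tested neuroectoderm markers were called higher and 0 lower (median log2 fold change 1.33). In Pds5a-KO siGLO 0 were called higher and 2 lower (median -0.26). Of all tested genes, 18.2% and 17.8% were called in these comparisons. The part of these sums in the Vim and Cdh2 values was not tested.

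Zeb1, on chromosome 18 from 5591860 to 5775467, was the more abundant ZEB mRNA in WT siGLO, at 399.6, 377.4 and 416.8 normalized counts. It was at 221.4, 175.8 and 214 in Pds5a-KO siGLO and at 267.1, 144.6 and 193.2 in Pds5b-KO siGLO, with no overlap with WT. The log2 fold change was -0.97 ± 0.15 in Pds5a-KO (edgeR adjusted p = 3.59e-05) and -0.98 ± 0.15 in Pds5b-KO (edgeR adjusted p = 3.04e-05).

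Zeb2 fell in Pds5a-KO and was not called in Pds5b-KO. Its normalized counts were 109.1, 172.3 and 164.6 in WT siGLO, 42.66, 58.92 and 65.54 in Pds5a-KO siGLO, and 136.2, 103.7 and 119.4 in Pds5b-KO siGLO. The Pds5a-KO libraries were all below WT, and the Pds5b-KO libraries overlapped it. The log2 fold change was -1.41 ± 0.21 in Pds5a-KO (edgeR adjusted p = 2.28e-05) and -0.31 ± 0.20 in Pds5b-KO (edgeR adjusted p = 0.241).

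Cdh2, on chromosome 18 from 16588877 to 16809246, had low counts and a wide spread in WT. It was at 243.2, 401 and 394.4 normalized counts in WT siGLO, at 212.3, 198.3 and 190.8 in Pds5a-KO siGLO, and at 303, 247.3 and 239.8 in Pds5b-KO siGLO. The Pds5a-KO libraries were all below WT, and the Pds5b-KO libraries overlapped it. The log2 fold change was -0.79 ± 0.22 in Pds5a-KO, which missed the call (edgeR adjusted p = 0.012), and -0.39 ± 0.22 in Pds5b-KO (edgeR adjusted p = 0.183). Without WT siGLO library 1, the lowest of its group, the adjusted p in Pds5a-KO was 0.00205 in edgeR.

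The Snail genes were not lower in either knockout. Snai1 was at 30.08, 31.54 and 48.79 normalized counts in WT siGLO, at 63.99, 72.95 and 77.11 in Pds5a-KO siGLO, and at 30.61, 44.86 and 51.45 in Pds5b-KO siGLO. Its log2 fold change was 0.94 ± 0.27 in Pds5a-KO (edgeR adjusted p = 0.00909). The call was lost when WT siGLO library 1 or 2 or any Pds5a-KO library was left out, among other settings. It was made in 7 of 15 alternative settings, with adjusted p between 0.000704 and 0.0512 over all settings in edgeR or DESeq2. The Snai1 change in Pds5b-KO was smaller. Its log2 fold change there was 0.19 ± 0.28 (edgeR adjusted p = 0.624), with libraries that overlapped WT.
Snai2 was at 3.437, 5.632 and 10.75 normalized counts in WT siGLO, at 10.16, 20.58 and 11.57 in Pds5a-KO siGLO, and at 5.278, 8.973 and 16.5 in Pds5b-KO siGLO. The groups overlapped, and neither knockout was called (edgeR adjusted p = 0.0856 and 0.343).

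**Figure D3:**
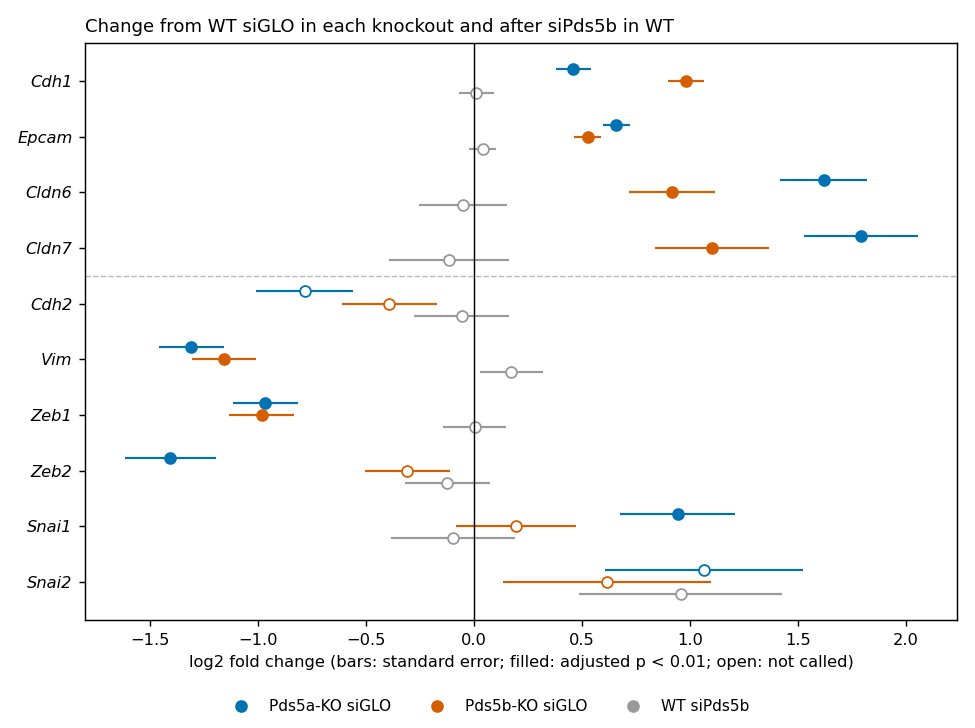
Log2 fold changes over WT siGLO of the 10 adhesion genes (rows) in Pds5a-KO siGLO, Pds5b-KO siGLO and WT siPds5b (colours). Bars are standard errors, and filled points, called at an adjusted p under 0.01, are right of 0 for Cdh1, Epcam, Cldn6 and Cldn7 and left of 0 for Vim and Zeb1 in both knockouts, while all WT siPds5b points are open.

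The knockout lines were compared with each other to ask which of these genes differed between loss of PDS5A and loss of PDS5B. Of the 10 genes, 2 were called, both lower in Pds5a-KO siGLO, where 19.2% of all tested genes were called. Cdh1 differed by -0.52 ± 0.082 on the log2 scale (edgeR adjusted p = 3.64e-05), in a comparison in which chromosome 8 had a median of -0.476 and 53.6% of its tested genes were called lower. Zeb2 was lower by -1.10 ± 0.21 (edgeR adjusted p = 0.00042). Cldn6 at 0.70 ± 0.20 and Snai1 at 0.75 ± 0.26 had higher libraries in Pds5a-KO without overlap but missed the call (edgeR adjusted p = 0.012 and 0.0321). Vim had a difference of -0.15 with a 95% interval from -0.46 to 0.16, and Zeb1 one of 0.02 with an interval from -0.30 to 0.34.

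Knockdown of Pds5b in WT mESCs asked what acute depletion does when PDS5A is present. Pds5b mRNA fell from 2219 to 776.2 normalized counts. None of the 10 adhesion genes was called by edgeR, 0 had an unadjusted p under 0.05, and DESeq2 called 0. Of all tested genes, edgeR called 0.00668% (1 gene), and DESeq2 called 0.0199% of those it tested (4 genes). All 10 genes had libraries that overlapped WT siGLO. Cdh1 was at 8396, 7780 and 7326 normalized counts, with a log2 fold change of 0.01 and a 95% interval from -0.16 to 0.18, which leaves out the size measured in either knockout. Vim was at 5529, 6647 and 7516 normalized counts, higher than WT siGLO in each of the 3 pairs of like-numbered libraries, with an interval from -0.14 to 0.48 (edgeR adjusted p = 0.923 with the library number as a block). Snai2, at 10.19, 13.39 and 16.07 normalized counts, had the widest interval, from -0.01 to 1.93. The knockout and the knockdown differ in the depth of depletion, in time and in clone, and these cannot be told apart here.

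Knockdown of Pds5b in Pds5a-KO mESCs, where its mRNA was at 903.3 normalized counts, addressed the loss of both PDS5 proteins, whose levels were not analysed here. Against WT siGLO, 8 of the 10 genes were called, 5 higher and 3 lower, where 32% of all tested genes were called. Cdh1 was at 12990, 15370 and 15460 normalized counts (log2 fold change 0.91 ± 0.082, edgeR adjusted p = 4.93e-09). Epcam at 0.65 ± 0.062, Cldn6 at 1.74 ± 0.20 and Cldn7 at 1.85 ± 0.26 had log2 fold changes close to those of Pds5a-KO siGLO. The median log2 fold change over chromosome 8 was -0.228.
Vim was at 2588, 3089 and 3235 normalized counts (-0.97 ± 0.15, edgeR adjusted p = 3.65e-05). Zeb1 fell by 0.69 and Zeb2 by 1.15 on the log2 scale (edgeR adjusted p = 0.000568 and 8.77e-05). Snai2 rose by 3.14 ± 0.40 (edgeR adjusted p = 1.04e-06), Snai1 at 0.84 ± 0.27 missed the call (edgeR adjusted p = 0.0129), and Cdh2 at -0.22 overlapped WT.

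Against Pds5a-KO siGLO, which isolates the siRNA in the same clone, 2 of the 10 genes were called, where 7.59% of all tested genes were called. Cdh1 rose by 0.45 ± 0.082 (edgeR adjusted p = 0.000468), and its lowest library with siPds5b, at 12990 normalized counts, was above the highest with siGLO, at 11260. Chromosome 8 had a median of -0.0369 in this comparison. Snai2, the SNAI factor of neural crest and mesenchyme, was at 64.82, 54.94 and 60.8 normalized counts, from 73, 53 and 61 raw counts, against 10, 22 and 12 raw counts with siGLO. No library with siPds5b came near those of any other condition, where the highest Snai2 value was 20.58, and its log2 fold change over Pds5a-KO siGLO was 2.08 ± 0.36 (edgeR adjusted p = 0.000314). In the same comparison Vim, at 0.34 ± 0.15, and Cdh2, at 0.57 ± 0.23, were not called (edgeR adjusted p = 0.139 and 0.0952), though each was higher with siPds5b in all 3 pairs of like-numbered libraries. With the library number as a block the adjusted p was 0.0242 for Vim and 0.104 for Cdh2 in edgeR.
Whether siPds5b acted differently in Pds5a-KO than in WT was tested as an interaction. None of the 10 genes was called by edgeR, where 1.48% of all tested genes were called. DESeq2 called 1 of the 10, where it called 2.82% of all genes it tested, and 1 had an unadjusted p under 0.05 in edgeR. That gene was Cdh1, with a difference of 0.44 ± 0.12 (edgeR adjusted p = 0.03). For Snai2 the difference was 1.12 ± 0.61 (edgeR adjusted p = 0.357), with an interval from -0.14 to 2.38.

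**Figure D4:**
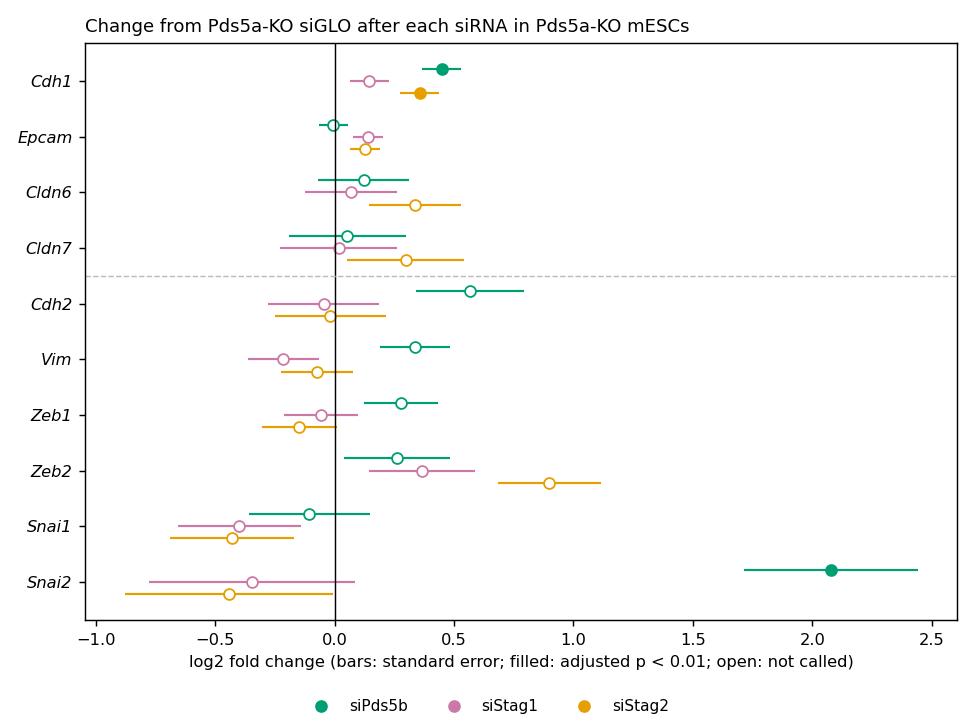
Log2 fold changes over Pds5a-KO siGLO of the 10 adhesion genes (rows) with siPds5b, siStag1 and siStag2 in Pds5a-KO mESCs (colours). Bars are standard errors and filled points were called, and Snai2 with siPds5b, at 2.08, stands farthest from 0.

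The STAG knockdowns asked whether loss of another cohesin subunit acts on these genes in Pds5a-KO mESCs as loss of PDS5B does. The 3 siRNA comparisons share the Pds5a-KO siGLO libraries. Stag1 mRNA was at 574.5 normalized counts with siStag1, and Stag2 mRNA at 875.2 with siStag2, against 2428 and 3256 in Pds5a-KO siGLO. With siStag1, none of the 10 genes was called by edgeR, where 0.0936% of all tested genes were called. DESeq2 called 0 of the 10, where it called 0.563% of all genes it tested. An unadjusted p under 0.05 was found for 1 of the 10. That gene was Epcam, at 7540, 7129 and 7269 normalized counts (0.14 ± 0.062).

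With siStag2, 1 of the 10 was called, where 2.24% of all tested genes were called. Cdh1 was at 14510, 13100 and 13490 normalized counts and rose by 0.36 ± 0.082 (edgeR adjusted p = 0.00938), a call that was lost on leaving out any one of the 6 libraries, with adjusted p up to 0.0632. Zeb2, at 111.3, 88.28 and 112.4 normalized counts, was above every Pds5a-KO siGLO library but missed the call (0.90 ± 0.22, edgeR adjusted p = 0.0126). The library number as a block pairs the libraries of this comparison. With it Cdh1 had an adjusted p of 0.00506 and Zeb2 of 0.00317 in edgeR. That made 2 of the 10 called, where 4.52% of all tested genes were called with the block. Zeb1, the other ZEB gene, was at 194.2, 178.8 and 177.8 normalized counts, with a difference of -0.15 ± 0.16.
Between siStag2 and siPds5b in Pds5a-KO, 1 of the 10 was called, where 3.96% of all tested genes were called. It was Snai2, lower with siStag2 by -2.52 ± 0.38 (edgeR adjusted p = 0.000158), at 10.74, 8.025 and 12.26 normalized counts. Zeb2 (0.64 ± 0.21) and Epcam (0.13 ± 0.062) were higher with siStag2 without overlap of libraries. Zeb1 (-0.43 ± 0.155) and Vim (-0.41 ± 0.15) were lower without overlap. All of these missed the call (edgeR adjusted p = 0.0591, 0.191, 0.085 and 0.0926). Between siStag2 and siStag1, none of the 10 was called by edgeR, where 0.394% of all tested genes were called. DESeq2 called 0 of the 10, where it called 2.13% of all genes it tested. An unadjusted p under 0.05 was found for 2 (Cdh1 and Zeb2).

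Ratios within a library put the levels together. Cdh2 per 100 Cdh1 counts was 2.85, 5.32 and 5.43 in WT siGLO (4.53 ± 1.46, SD, n = 3), 2.63, 4.56 and 5.77 in WT siPds5b, and between 1.26 and 2.62 in the knockout libraries, so that the lowest WT siPds5b library lay next to the highest knockout library. Vim per 100 Epcam counts was 139 in WT siGLO and 153 in WT siPds5b on average, and between 27.8 and 45.1 in the 5 knockout conditions. Zeb2 per 100 Zeb1 counts was 37.5 ± 9.34 in WT siGLO, 27.8 ± 7.53 in Pds5a-KO siGLO, 61.5 ± 10.4 in Pds5b-KO siGLO and 56.6 ± 6.95 in Pds5a-KO siStag2.
The highest group mean divided by the lowest was 9.11 for Snai2, 4.62 for Cldn7, 4.02 for Cldn6 and 3.24 for Vim, and between 1.74 (Epcam) and 2.67 (Zeb2) for the other genes. Cdh1 was ordered from WT siGLO (7779) and WT siPds5b (7834), which overlapped, through Pds5a-KO siGLO (10700) and siStag1 (11830), which overlapped, to siStag2 (13700), siPds5b (14610) and Pds5b-KO siGLO (15370), which overlapped. Over the 21 libraries, which share conditions, the genes most like Cdh1 by Pearson's r of log2 CPM were Eps8l2 (0.949), Bcl6b (0.939) and Mmp2 (0.936, also on chromosome 8). For Cdh2 they were Cachd1 (0.919), L3mbtl3 (0.917) and Lpar4 (0.89), and for Vim they were Cd59a (0.959), Ak1 (0.933) and Klhdc7a (0.931), among 11990 genes.

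Of 28 other epithelial junction genes, 22 were called higher and 1 lower in Pds5a-KO siGLO over WT siGLO (median log2 fold change 0.72), 9 higher and 0 lower in Pds5b-KO siGLO (0.44), and 20 higher and 1 lower in Pds5a-KO siPds5b (0.73), where the median over all genes was within 0.01 of 0 and 17.8%, 18.2% and 32% of all tested genes were called. DESeq2 called 24, 16 and 23 of the 28, where it called 19.5%, 20.5% and 31.6% of all genes it tested. The number called in Pds5b-KO siGLO thus depended on the test. The keratins Krt18 (3.31 ± 0.47), Krt8 and Krt19, which form the intermediate filaments of simple epithelia, rose most in Pds5a-KO siGLO, and the desmosomal cadherin Dsg2 fell by 0.63. Krt8 was at 1716 ± 56.1 normalized counts in WT siGLO and 14080 ± 6920 in Pds5a-KO siGLO (SD, n = 3), a wide spread between libraries. In Pds5b-KO siGLO the largest increases among called genes of the list were in Cdh3 (P-cadherin, 1.43), Marveld3 (1.29) and Pkp3 (1.24), and Cdh3 and Marveld3 are on chromosome 8. Krt8, Krt18 and Krt19, at 4340 ± 1340, 3048 ± 956 and 643.3 ± 259 normalized counts there against 1716 ± 56.1, 1139 ± 22.2 and 240.3 ± 9.1 in WT siGLO, were not called in Pds5b-KO. Without the chromosome 8 genes, 20 of 26 were called higher in Pds5a-KO siGLO and 7 in Pds5b-KO siGLO. In WT siPds5b edgeR called 0 of 28, 1 had an unadjusted p under 0.05 and DESeq2 called 0, and the same 3 counts were found for siStag1 in Pds5a-KO. Of all tested genes, edgeR called 0.00668% and 0.0936% in these comparisons, and DESeq2 called 0.0199% and 0.563% of those it tested. With siPds5b in Pds5a-KO mESCs 1 of the 28 was called, Rab25 (-1.05), where 7.59% of all tested genes were called. With siStag2 it was 1, Cgn (0.56), a tight junction scaffold, where 2.24% were called.

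Among 9 epithelial transcription and splicing factors, 5 were called higher in Pds5a-KO siGLO, 4 higher and 1 lower in Pds5b-KO siGLO, and 2 higher and 1 lower in Pds5a-KO siPds5b. The shares of all tested genes called in these comparisons, 17.8%, 18.2% and 32%, apply to this list and the lists that follow, and 3 called of 9 in Pds5a-KO siPds5b is near the last of them. Without Esrp2, on chromosome 8, 4 of 8 were called higher in Pds5a-KO siGLO and 3 in Pds5b-KO siGLO. The splicing factor Esrp1 was higher in all 3, by 1.25, 1.26 and 1.41, and the transcription factor Grhl2 rose by 1.00 in Pds5a-KO siGLO, while Klf5 fell by 0.94 in Pds5a-KO siPds5b. Of 9 catenins and cadherin partners, 3 were called higher in Pds5a-KO siGLO (Mllt4, Pvrl3 and Ctnnd1), 1 in Pds5b-KO siGLO (Mllt4, 0.69) and 4 in Pds5a-KO siPds5b.

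The other mesenchymal genes moved in both directions. Of 16 tested, 3 were called higher and 2 lower in Pds5a-KO siGLO, 1 higher and 1 lower in Pds5b-KO siGLO, and 6 higher and 2 lower in Pds5a-KO siPds5b, so that the share called in Pds5b-KO was below that of all tested genes. Without Mmp2 and Foxc2, which are on chromosome 8, 2 higher and 2 lower of 14 were called in Pds5a-KO siGLO, 0 higher and 1 lower in Pds5b-KO siGLO, and 4 higher and 2 lower in Pds5a-KO siPds5b. The matrix metalloproteinase Mmp2 rose by 1.03 in Pds5a-KO siGLO and 1.54 in Pds5b-KO siGLO, and the matrix protein Sparc by 0.46 in Pds5a-KO siGLO. Spp1, which encodes osteopontin, fell by 0.29 and 0.94. Of 14 genes of the TGF-beta pathway, a known inducer of SNAI and ZEB genes, 4 were called higher and 1 lower in Pds5a-KO siGLO, 2 higher in Pds5b-KO siGLO, and 6 higher and 1 lower in Pds5a-KO siPds5b, and the share in Pds5b-KO was again below that of all tested genes. They included the ligand Tgfb3 (2.24) in Pds5a-KO siGLO, and Skil, an inhibitor of the pathway, which rose by 0.74 and 0.85 in the knockouts. Of 8 co-repressors of SNAI and ZEB factors, 0 were called in Pds5a-KO siGLO by edgeR (3 had an unadjusted p under 0.05 and DESeq2 called 1), 2 higher and 1 lower in Pds5b-KO siGLO (Ehmt2 at 0.26, Kdm1a at 0.22 and Hdac2 at -0.47), and 0 higher and 2 lower in Pds5a-KO siPds5b.

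**Figure D5:**
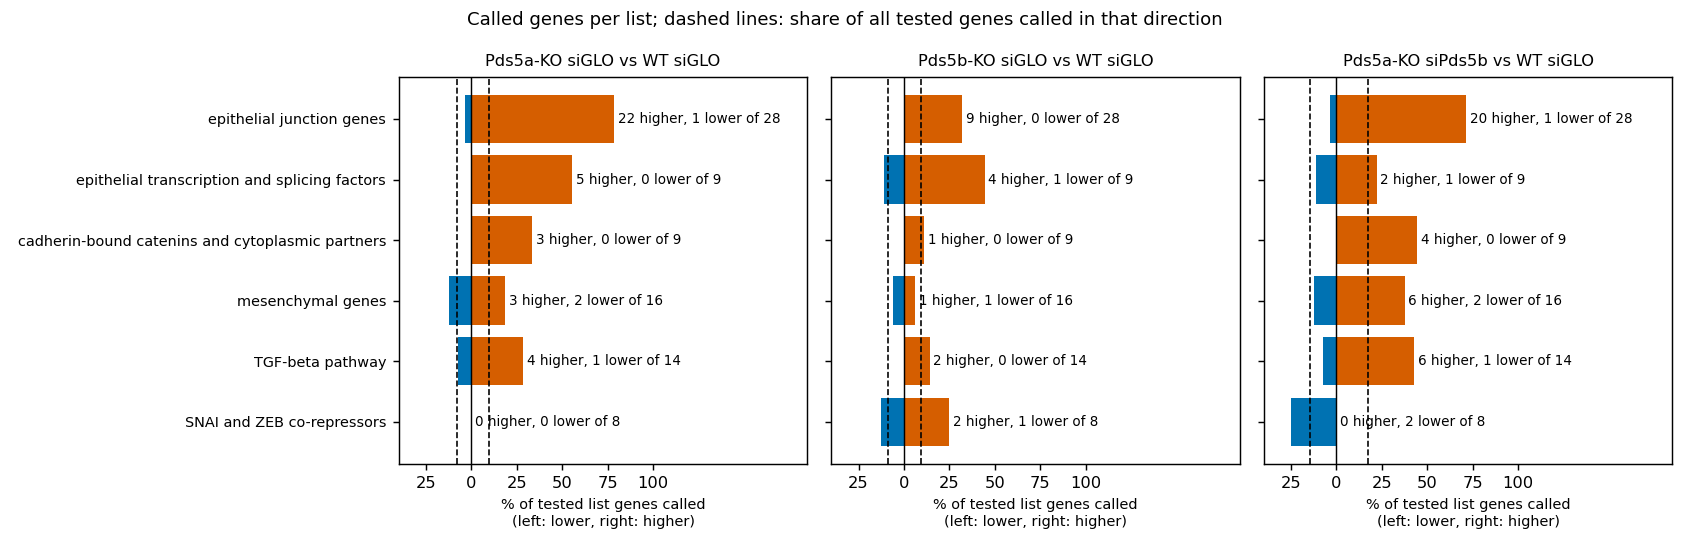
Percent of the tested genes of 6 lists called higher (right of 0) or lower (left of 0) than WT siGLO in Pds5a-KO siGLO, Pds5b-KO siGLO and Pds5a-KO siPds5b, with dashed lines at the share of all tested genes called in that direction. The bars of the epithelial junction genes, 22 of 28 in Pds5a-KO siGLO and 20 of 28 in Pds5a-KO siPds5b, reach farthest to the right.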

How the data were processed

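Poly-A RNA was sequenced with paired-end reads in 21 libraries of 7 conditions, grouped by their labels. Per the labels and methods, STAR was used to align reads to mm10, and the authors deposited raw counts per gene, not normalized. The counting tool, annotation and use of strand are not given in the sources used here, so reads of overlapping antisense genes may be included. The number of sample columns left unmapped was 0. The 10 genes and the gene lists were chosen with earlier results of these data known.

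The test was edgeR's quasi-likelihood F test (edgeR 4.0.16, R 4.3.3). Low genes were dropped by filterByExpr over the 7 conditions, and the counts, with TMM factors, were fitted in 1 model of the 21 libraries, with Benjamini-Hochberg adjustment over 14963 genes and calls at an adjusted p under 0.01. The standard error is the log2 fold change divided by the square root of F. With 3 libraries against 3, an exact permutation test cannot give a p below 0.1, so none was used. The model was tested on simulated data. Precision is limited by counts, as for Snai2, and covers counting error and the spread between libraries.

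The named genes are the 10 in every comparison, up to 3 with the largest increase and 3 with the largest decrease from each list among called genes whose mean log2 CPM was 1 or more, and the 3 most like Cdh1, Cdh2 and Vim. Twist2 and other called genes below that level are counted but not named. Libraries with the same number deviated together (median r 0.175 over 63 pairs, against -0.0871 over 126 pairs of unlike numbers). Every such pair's r was over 0.1 for siPds5b in WT and for each siRNA in Pds5a-KO, each against siGLO. The main test did not use this pairing, and values with the library number as a block are from an alternative fit.

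Alternatives were DESeq2 1.42.0, RLE factors, library size only, no filter, at least 10 counts in every library, only the groups compared, an adjusted p under 0.05, the replicate block and leaving out each library. The use of only the libraries numbered 2 and 3 was chosen after seeing the data. Gene positions are from GENCODE on GRCm38 and promoters and chromosomes from RefSeq GRCm38.p6. Figures were drawn with matplotlib 3.10.9.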

Additional observations from a re-analysis of the deposited data

How the results depend on the processing

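Among the 10 adhesion genes, no direction of a called gene was reversed by an alternative. The genes of the lists were counted with DESeq2 and were not followed through the other alternatives. Of the 10 genes, the number called was 7 to 8 in Pds5a-KO siGLO, 4 to 6 in Pds5b-KO siGLO and 8 to 9 in Pds5a-KO siPds5b against WT siGLO when each library was left out. In those fits 11.6% to 17%, 11.2% to 17.2% and 25.3% to 29.7% of all tested genes were called. For siStag2 against Pds5a-KO siGLO (1 called), the number was 2 with an adjusted p under 0.05, 2 with the replicate block and 2 with DESeq2, 0 with only libraries numbered 2 and 3, 0 with only the groups compared, and 0 to 0 without any one library. Of all tested genes, 2.24% were called there in the main test and 7.99% with an adjusted p under 0.05. The share was 4.52% with the replicate block, 5.89% with DESeq2, 1.6% with only libraries numbered 2 and 3 and 0.701% with only the groups compared. For Pds5a-KO siGLO against Pds5b-KO siGLO (2 called), it was 5 with an adjusted p under 0.05, 5 with the replicate block, which adds Cldn6, Cldn7 and Snai1, 4 with only libraries numbered 2 and 3, and 2 to 3 without any one library. The share of all tested genes called there was 19.2% in the main test and 32.4% with an adjusted p under 0.05. It was 23.7% with the replicate block and 18.1% with only libraries numbered 2 and 3. For the interaction (0 called) the number was 1 with an adjusted p under 0.05, 1 with DESeq2 and 1 with only libraries numbered 2 and 3, each time Cdh1. In these 3 settings 3.86%, 2.82% and 1.72% of all tested genes were called, against 1.48% in the main test. For siPds5b against Pds5a-KO siGLO (2 called) the number was 1 with at least 10 counts in every library, which drops Snai2 by construction. Of all tested genes 7.78% were called under that filter. For siStag2 against siPds5b (1 called) the number was 0 under that filter, for the same reason, and 2 with only libraries numbered 2 and 3, where Vim was added. In these settings 3.83% and 2.95% of all tested genes were called. With the replicate block, 8, 6 and 9 genes were called in Pds5a-KO siGLO, Pds5b-KO siGLO and Pds5a-KO siPds5b against WT siGLO. With it 21.2%, 22.2% and 36% of all tested genes were called. Among the comparisons of an siRNA with siGLO in the same genotype, the block changed no call other than Zeb2 with siStag2. Except where the construction shows it, the cause was not tested. Low counts limit Snai2, and 1 clone per genotype limits every knockout comparison.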
